A study of Mus musculus with 12 samples.

Results

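Fibrillar collagens and the proteins that crosslink or decorate their fibres were followed here through the hearts of 12 mice, each read on its own bead array. The set held 10 genes, Col1a1, Col1a2, Col3a1, Col5a1, Col5a2, Lox, Loxl1, Loxl2, Fn1 and Bgn, and its members were all probes that the platform annotation gives to these symbols. That gave 18 of the 45281 probes on the array, for 9 of the 10 genes. Loxl2 had no probe in the annotation and was not analysed here. Of the 18 probes, 11 were detected on enough arrays to enter the tests, and all 9 genes kept at least 1 probe among the 14240 genes fitted.

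The mice were adult males of the C57Bl/6J strain, and every mouse received an adeno-associated virus (AAV). The groups were 4 hearts with endothelial VEGFR1 deletion and AAV-VEGF-B (VEGFR1del_VEGFB), 2 wild-type hearts with AAV-VEGF-B (WT_VEGFB), 3 hearts with endothelial VEGFR1 deletion and AAV-Scramble, the control virus (VEGFR1del_Scramble), and 3 wild-type hearts with AAV-Scramble (WT_Scramble). VEGF-B is a secreted ligand of VEGFR1, the receptor that Flt1 encodes, and its virus was given by intraperitoneal injection. The deletion came from the Cdh5-Cre-ERT2 transgene, in which the promoter of an endothelial cadherin drives a Cre that tamoxifen activates, acting on Flt1 flox/flox alleles. It therefore removes the receptor from endothelial cells and leaves Flt1 in any other cell of the heart. Whether the wild-type mice received tamoxifen or carried Cre is not given in the sources used here, nor are the ages or the times after injection.

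Collagens I, III and V are triple-helical proteins secreted as procollagens, trimmed outside the cell and assembled into fibres, with collagen V sitting inside the collagen I fibre and limiting its width. Lysyl oxidases then oxidise lysines of collagen and elastin so that neighbouring molecules bond covalently. Fibronectin is laid down as a network on which collagen assembles, and biglycan is a small leucine-rich proteoglycan that binds collagen fibres. In the heart these proteins come mostly from fibroblasts, and their accumulation between the muscle cells is the hallmark of fibrosis.

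Array medians of the probe signal lay between 98.7 and 111.5, and each array detected between 16685 and 18210 probes. All values below are log2 signals after background correction and quantile normalization, or differences of these (log2 fold changes) with the standard error (SE) of a limma model fitted to all arrays, where an adjusted p under 0.05 counts as a call. Levels of different genes are not compared, since each probe has its own brightness. Flt1 had log2 signals of 9.00, 9.36, 8.93 and 9.47 in VEGFR1del_VEGFB hearts, 11.51 and 11.22 in WT_VEGFB hearts, 8.19, 8.46 and 11.56 in VEGFR1del_Scramble hearts, and 10.79, 10.90 and 10.91 in WT_Scramble hearts. The library labelled VEGFR1del_Scramble replicate 3 thus had the highest Flt1 signal of all 12, against its label, and the main results that rest on it are also given without it (11 arrays). Results with no such mark are from all 12 arrays. All 4 VEGFR1del_VEGFB arrays formed 1 of the 3 sets in which the authors normalized their own values, so differences between this group and the others cannot be told apart from any difference between sets. Both WT_VEGFB arrays and VEGFR1del_Scramble replicate 3 formed another set, and the remaining 5 arrays the third. WT_VEGFB and WT_Scramble hearts thus lay in different sets. Their difference can be told apart from set only through VEGFR1del_Scramble replicate 3, whose label is in doubt. The heart is a mixture of cells, and in such bulk RNA fewer cells of a type and less RNA per cell cannot be told apart.

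Promoter sequence was on hand from RefSeq for 4 of the 10 members, Col1a2, Col3a1, Col5a1 and Bgn. The 250 bases before the gene start are printed for Bgn and Col3a1, which passed the test for VEGF-B in VEGFR1-deleted hearts on the 11 arrays, and for Col1a2, which did not. All lie on the plus strand of GRCm38.p6, with Bgn at chrX:73483351-73483600, Col3a1 at chr1:45311288-45311537 and Col1a2 at chr6:4505368-4505617. Capitals mark the CCAAT box, the TATAAA box and the GC box GGGCGG, each searched on both strands, so that CCGCCC is GGGCGG on the other strand.
Bgn: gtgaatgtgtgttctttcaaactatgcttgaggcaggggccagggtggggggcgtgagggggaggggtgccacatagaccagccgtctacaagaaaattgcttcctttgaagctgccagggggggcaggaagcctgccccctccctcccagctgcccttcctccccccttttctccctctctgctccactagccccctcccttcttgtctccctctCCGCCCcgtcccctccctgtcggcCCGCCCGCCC
Col3a1: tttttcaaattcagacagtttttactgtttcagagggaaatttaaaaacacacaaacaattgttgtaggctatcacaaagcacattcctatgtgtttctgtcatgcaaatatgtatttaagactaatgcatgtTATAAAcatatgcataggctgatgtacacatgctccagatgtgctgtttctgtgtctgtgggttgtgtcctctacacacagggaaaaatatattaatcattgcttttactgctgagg
Col1a2: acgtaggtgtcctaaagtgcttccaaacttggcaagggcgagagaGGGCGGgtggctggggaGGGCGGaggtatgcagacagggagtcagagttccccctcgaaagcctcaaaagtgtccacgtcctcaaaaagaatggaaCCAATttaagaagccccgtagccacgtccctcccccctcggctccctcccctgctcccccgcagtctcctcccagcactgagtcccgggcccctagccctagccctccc
Bgn held GGGCGG on the opposite strand at 3 places, beginning 34, 10 and 6 bases before the gene start, of which the last pair overlap. Col3a1 held TATAAA, beginning 117 bases before its start. Col1a2 held CCAAT at 109 and GGGCGG at 205 and 188 bases before its start, and Col5a1, which is not printed, held GGGCGG in 2 places. Of all 32851 promoter windows of this length, 33.8% held CCAAT, 12.4% held TATAAA and 32.7% held GGGCGG.

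With VEGF-B virus in VEGFR1-deleted hearts, set against scramble virus in the same genotype, 2 of the 9 measured members rose. Biglycan (Bgn) and lysyl oxidase-like 1 (Loxl1) were 1.37-fold and 1.38-fold higher, and the other 7 measured members were above 0, as were 48.6% of all genes, without passing the test. Among those 7, Col3a1, Col1a1 and Lox had the largest differences, at 0.92, 0.85 and 0.81 on the log2 scale. The 2 called members, both higher, stand against 2.82% of all genes called higher in this comparison, and 4.61% called in either direction. On the 11 arrays 4 members rose, Bgn, Loxl1, Col3a1 and Fn1, where 4.71% of all genes were called higher. The median over the 9 members was 0.47, against -0.0068 over all genes, and 0.57 on the 11 arrays. One of the 9, Col5a2, entered the tests only through hearts with VEGF-B virus, and the median over the 8 members detected on all arrays was also 0.47.

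Among the fibrillar collagens, Col1a1, which encodes the alpha 1 chain of collagen I, had log2 signals of 8.86, 7.70, 8.60 and 7.83 in VEGFR1del_VEGFB hearts, 7.84 and 8.25 in WT_VEGFB hearts, 7.08, 7.56 and 7.56 in VEGFR1del_Scramble hearts, and 7.65, 7.00 and 7.33 in WT_Scramble hearts. Every heart with VEGF-B virus lay above every heart with scramble virus, whatever the genotype, and replicates 1 and 3 of VEGFR1del_VEGFB lay highest. In VEGFR1-deleted hearts the difference with VEGF-B was 0.85 (SE 0.26, adjusted p = 0.0854), and on the 11 arrays it was 0.93 (SE 0.31, adjusted p = 0.0911). In wild-type hearts it was 0.72 (SE 0.32, adjusted p = 0.295).

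Col1a2, the alpha 2 chain of the same collagen I molecule, had log2 signals of 6.07, 5.69, 5.71 and 5.67 in VEGFR1del_VEGFB hearts, 5.59 and 5.38 in WT_VEGFB hearts, 5.83, 5.46 and 5.87 in VEGFR1del_Scramble hearts, and 5.50, 5.62 and 5.25 in WT_Scramble hearts. The values of VEGFR1del_VEGFB and VEGFR1del_Scramble hearts overlapped. The difference with VEGF-B was 0.06 in VEGFR1-deleted hearts (SE 0.14, adjusted p = 0.851, 95% interval -0.24 to 0.36) and 0.03 in wild-type hearts (SE 0.17, adjusted p = 0.965). In VEGFR1-deleted hearts it was 0.13 on the 11 arrays (SE 0.16, adjusted p = 0.665). The chains of collagen I therefore stood at 0.85 and 0.06 in the same hearts, and the gap between them was not tested.

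Col3a1, the single chain of collagen III, the thinner-fibred collagen of distensible tissue, had log2 signals of 7.20, 6.16, 6.31 and 6.11 in VEGFR1del_VEGFB hearts, 5.87 and 5.97 in WT_VEGFB hearts, 5.70, 4.93 and 5.94 in VEGFR1del_Scramble hearts, and 6.17, 6.10 and 6.21 in WT_Scramble hearts. Hearts with VEGF-B lay above those with scramble in the VEGFR1-deleted genotype and below them in the wild type, with no overlap in either. The difference with VEGF-B in VEGFR1-deleted hearts was 0.92 (SE 0.26, adjusted p = 0.0597), and on the 11 arrays it passed the test, at 1.13 (SE 0.28, adjusted p = 0.0302). The VEGFR1del_Scramble hearts were the low group here, and set against WT_Scramble hearts the VEGFR1del_VEGFB hearts differed by 0.29 (SE 0.26, adjusted p = 0.470). In wild-type hearts the difference with VEGF-B was -0.24 (SE 0.31, adjusted p = 0.768).

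A second Col3a1 probe, ILMN_2683958, was dimmer and was detected on 7 of the 12 arrays. It gave 0.22 (SE 0.19) for VEGF-B in VEGFR1-deleted hearts and 0.40 (SE 0.22) in wild-type hearts, so that in wild type the probes of Col3a1 had opposite signs and in VEGFR1-deleted hearts the dimmer one showed the smaller difference.

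Col5a1, the alpha 1 chain of collagen V, had log2 signals of 9.80, 9.18, 9.56 and 9.26 in VEGFR1del_VEGFB hearts, 9.14 and 9.27 in WT_VEGFB hearts, 9.12, 9.20 and 9.06 in VEGFR1del_Scramble hearts, and 9.32, 9.00 and 9.12 in WT_Scramble hearts. Replicates 1 and 3 of VEGFR1del_VEGFB lay above all other hearts, as they did for Col1a1, while replicates 2 and 4 lay within the range of the scramble hearts. The difference with VEGF-B in VEGFR1-deleted hearts was 0.32 (SE 0.14, adjusted p = 0.213), and on the 11 arrays 0.29 (SE 0.16, adjusted p = 0.324).

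Col5a2, the partner chain of Col5a1 in collagen V, was close to the detection limit. It had log2 signals of 5.27, 5.32, 4.63 and 4.91 in VEGFR1del_VEGFB hearts, 4.55 and 5.12 in WT_VEGFB hearts, 4.44, 4.40 and 4.60 in VEGFR1del_Scramble hearts, and 4.58, 4.65 and 4.50 in WT_Scramble hearts. Its best probe was detected on 3 VEGFR1del_VEGFB arrays, 1 WT_VEGFB array and 0 arrays with scramble virus, and its other 4 probes were detected on none. The VEGFR1del_Scramble level is therefore only a bound. With the lowest detected signal in its place VEGFR1del_VEGFB hearts were 1.09-fold higher, or 1.08-fold on the 11 arrays. Their mean includes the undetected signal of replicate 3, so this fold is not a strict bound. The limma test used the undetected signals and did not call Col5a2 (adjusted p = 0.0809, and 0.0814 on the 11 arrays). It is not a test of that fold, and the probe entered it only through hearts with VEGF-B virus.

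The crosslinking enzymes were both above 0. Lox, the founding lysyl oxidase, had log2 signals of 7.11, 6.01, 6.09 and 5.85 in VEGFR1del_VEGFB hearts, 6.17 and 5.85 in WT_VEGFB hearts, 5.52, 5.56 and 5.29 in VEGFR1del_Scramble hearts, and 5.99, 6.00 and 5.35 in WT_Scramble hearts. The VEGFR1del_VEGFB hearts lay above all VEGFR1del_Scramble hearts, but 3 of them shared the range of the WT_VEGFB and WT_Scramble hearts and replicate 1 alone lay far above. The difference with VEGF-B in VEGFR1-deleted hearts was 0.81 (SE 0.26, adjusted p = 0.0921), and on the 11 arrays 0.73 (SE 0.30, adjusted p = 0.167).

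Loxl1, a lysyl oxidase known above all for elastic fibres, had log2 signals of 10.97, 10.87, 10.74 and 10.75 in VEGFR1del_VEGFB hearts, 10.51 and 10.58 in WT_VEGFB hearts, 10.26, 10.27 and 10.56 in VEGFR1del_Scramble hearts, and 10.50, 10.39 and 10.39 in WT_Scramble hearts. The 4 VEGFR1del_VEGFB hearts lay above all 8 others, and the library labelled VEGFR1del_Scramble replicate 3 lay with the WT_VEGFB hearts. Loxl1 rose with VEGF-B in VEGFR1-deleted hearts, by 0.47 (SE 0.10, adjusted p = 0.0261), and by 0.57 on the 11 arrays (SE 0.10, adjusted p = 0.0103). Its second probe was not detected on any array.

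Fn1, which encodes fibronectin, had log2 signals of 7.83, 7.64, 7.65 and 7.56 in VEGFR1del_VEGFB hearts, 7.24 and 7.55 in WT_VEGFB hearts, 6.97, 7.26 and 7.38 in VEGFR1del_Scramble hearts, and 7.23, 7.02 and 6.98 in WT_Scramble hearts. The 4 VEGFR1del_VEGFB hearts again lay above all others, by a small margin over WT_VEGFB replicate 2. The difference with VEGF-B in VEGFR1-deleted hearts was 0.47 (SE 0.12, adjusted p = 0.0511), and on the 11 arrays 0.56, which passed the test (SE 0.14, adjusted p = 0.0304). A second Fn1 probe, ILMN_2588227, was detected on 6 arrays and gave -0.08 (SE 0.16), and 2 more Fn1 probes were not detected on any array.

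Bgn, which encodes biglycan, had log2 signals of 12.77, 12.68, 12.73 and 12.66 in VEGFR1del_VEGFB hearts, 12.28 and 12.21 in WT_VEGFB hearts, 12.18, 12.13 and 12.46 in VEGFR1del_Scramble hearts, and 12.12, 12.07 and 12.04 in WT_Scramble hearts. Each group of hearts lay apart from the WT_Scramble hearts, VEGFR1del_Scramble only by a small margin (12.13 against 12.12). The VEGFR1del_VEGFB hearts lay above all others with an SD of 0.051. Bgn rose with VEGF-B in VEGFR1-deleted hearts, by 0.45 (SE 0.097, adjusted p = 0.0242), and by 0.55 on the 11 arrays (SE 0.094, adjusted p = 0.00749).

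**Figure D1:**
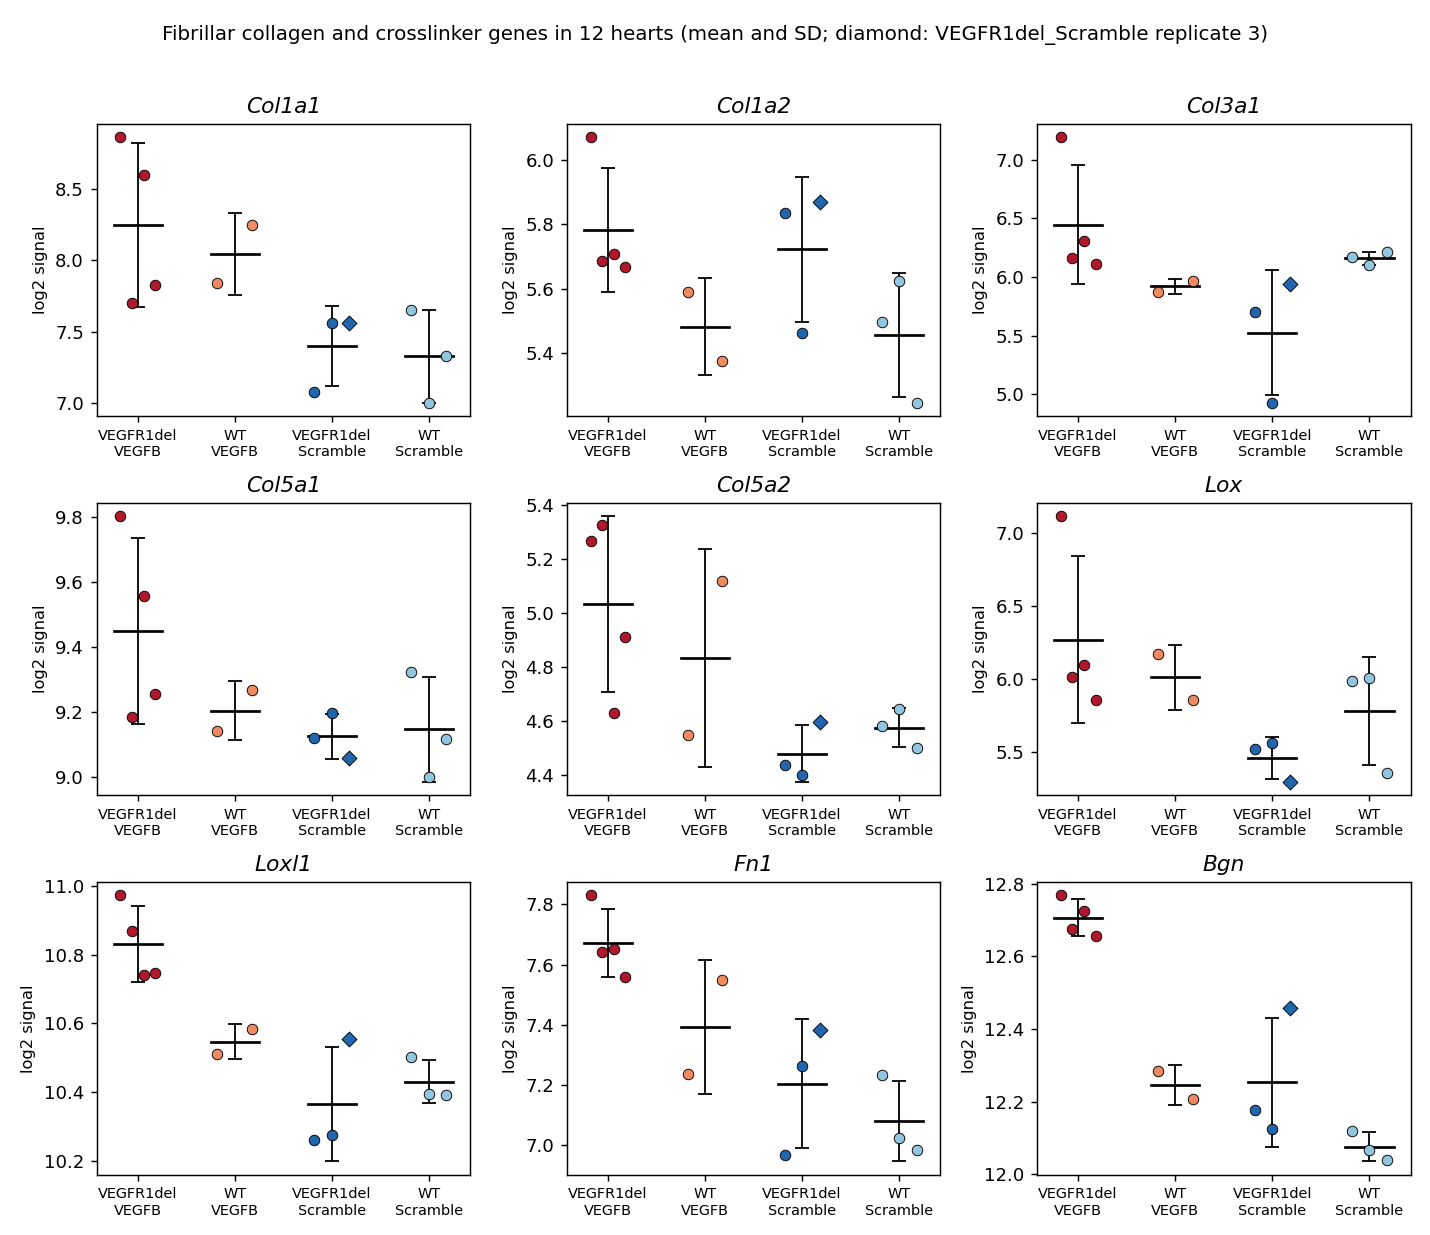
Log2 signal of each of the 9 measured members in each heart, 1 panel per gene, with the groups from left to right VEGFR1del_VEGFB, WT_VEGFB, VEGFR1del_Scramble and WT_Scramble. Points are single hearts, lines are group means with SD bars, and the diamond is VEGFR1del_Scramble replicate 3. The 4 VEGFR1del_VEGFB hearts lie above all 8 others for Loxl1, Fn1 and Bgn. VEGFR1del_VEGFB replicate 1 is the highest heart of its group for 8 of the 9 members. The share of all genes with either pattern was not counted.

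Over the 8 members detected on all arrays, VEGFR1del_VEGFB and VEGFR1del_Scramble hearts did not overlap for 6, all higher with VEGF-B, against 10.2% of the 10383 genes so detected. The same count was 6 on the 11 arrays, against 18.2%. Col5a2 is left out of these counts because its signal in VEGFR1del_VEGFB replicate 3 and in every scramble heart was not detected. The calls for Bgn and Loxl1 depended on single hearts. Without VEGFR1del_Scramble replicate 1 or replicate 2, or without VEGFR1del_VEGFB replicate 1, neither member was called, with adjusted p-values from 0.0608 to 0.118 and differences from 0.39 to 0.43. Loxl1 also lost its call without VEGFR1del_VEGFB replicate 2 (adjusted p = 0.0541), and Bgn without replicate 3 (adjusted p = 0.0565).

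VEGF-B virus in wild-type hearts called none of the 9 members. The largest difference was that of Col1a1 at 0.72, and the next was Fn1 at 0.31 (SE 0.15, adjusted p = 0.336). In limma's test 284 of all 14240 genes, 1.99%, were called, against 3 genes with the authors' sets as a block, which rests on VEGFR1del_Scramble replicate 3, and 4 to 397 genes with single hearts left out (12 without WT_VEGFB replicate 1, 4 without WT_VEGFB replicate 2, and 161, 27 and 53 without WT_Scramble replicates 1, 2 and 3 in turn). The count over all genes thus rests on single hearts. At an unadjusted p under 0.05 the count of members was 1, Col1a1, against 15.5% of all genes. WT_VEGFB and WT_Scramble hearts did not overlap for 4 members that stood higher with VEGF-B, Col1a1, Loxl1, Fn1 and Bgn, against 17% of all genes, and for Col3a1, which stood lower, against 16.9%. The difference was 0.12 for Loxl1 and 0.17 for Bgn, and the median over the members was 0.17 against -0.018 over all genes. Over the 8 members detected on all arrays the median was 0.14. With 2 WT_VEGFB hearts the intervals were wide, from -0.15 to 0.38 for Loxl1 and from -0.08 to 0.42 for Bgn.

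Whether VEGF-B acted differently by genotype was tested as the difference between its effects in VEGFR1-deleted and wild-type hearts. It called 0 of the 9 members and 0% of all genes. At an unadjusted p under 0.05 there were 2 members, Col3a1 and Loxl1, against 5.04% of all genes. The difference was 1.16 for Col3a1 (SE 0.40, adjusted p = 0.975) and 0.35 for Loxl1 (SE 0.16, adjusted p = 0.976). Without VEGFR1del_Scramble replicate 3 there were 3 such members, with Bgn at 0.38 (SE 0.14, adjusted p = 0.834) as the third, against 5.76%, and Col3a1 was at 1.37 (SE 0.40, adjusted p = 0.727). The higher count of called members in VEGFR1-deleted hearts therefore does not show that the effects differ between genotypes.

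**Figure D2:**
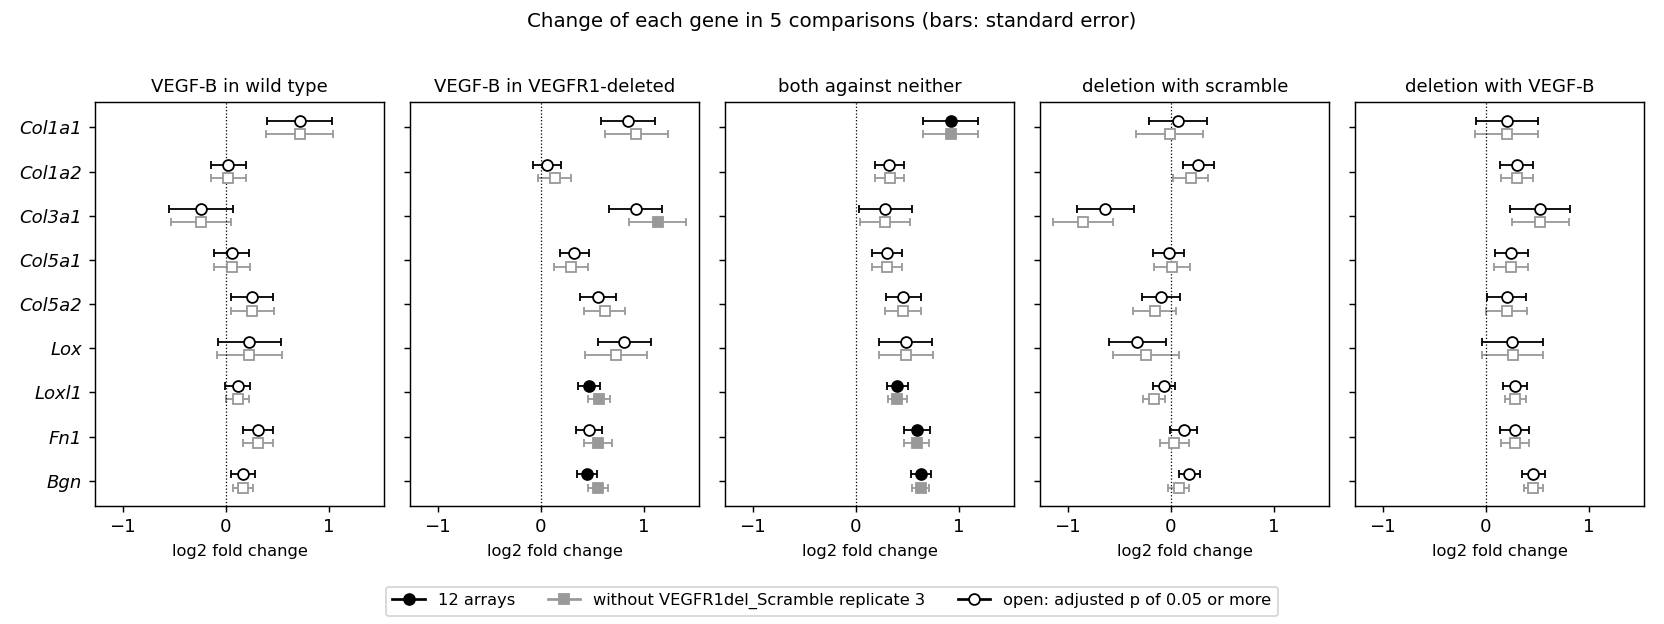
Log2 fold changes of the 9 members for the comparisons between groups, 1 panel per comparison. Circles are the fit on 12 arrays, squares the fit without VEGFR1del_Scramble replicate 3, bars the standard error, and filled points are called. For VEGF-B in VEGFR1-deleted hearts all 9 points lie above 0, with Bgn at 0.45 and Loxl1 at 0.47 called on the 12 arrays; in wild-type hearts no member was called.

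Hearts with both the deletion and VEGF-B, set against hearts with neither, had 4 of the 9 members higher. Bgn rose by 0.63 (SE 0.097, adjusted p = 0.000606), Fn1 by 0.59 (SE 0.12, adjusted p = 0.00476), Loxl1 by 0.40 (SE 0.10, adjusted p = 0.0142) and Col1a1 by 0.92 (SE 0.26, adjusted p = 0.0253). These are folds of 1.55, 1.51, 1.32 and 1.89. Averaged with its dimmer second probe, Fn1 differed by 0.34 and was not called (adjusted p = 0.0582). The 4 members called, all higher, stand against 11.6% of all genes called higher and 21% called in either direction. The same 4 were called on the 11 arrays, where 12% of all genes were called higher. VEGFR1del_VEGFB and WT_Scramble hearts did not overlap for 5 members, these 4 and Col1a2, against 15.7% of all genes.

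Among the remaining members, Lox differed by 0.49 (SE 0.26, adjusted p = 0.204), Col1a2 by 0.33 (SE 0.14, adjusted p = 0.121) and Col5a1 by 0.30 (SE 0.14, adjusted p = 0.150). None of these differences passed the test. Col5a2 was not detected in WT_Scramble hearts. The VEGFR1del_VEGFB mean, which includes the undetected replicate 3, was 1.09-fold above the lowest detected signal. Its probe entered the tests only through hearts with VEGF-B virus. Its limma test, which used the undetected signals, did not call it (adjusted p = 0.0738). The median over the members was 0.46, against -0.027 over all genes, and 0.44 over the 8 members detected on all arrays. The call for Col1a1 depended on single hearts, with adjusted p-values of 0.110 without WT_Scramble replicate 2, 0.0659 without WT_Scramble replicate 3, 0.0610 without VEGFR1del_VEGFB replicate 1 and 0.0657 without VEGFR1del_VEGFB replicate 3. The call for Loxl1 was lost without WT_Scramble replicate 2 (adjusted p = 0.0508).

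The deletion with scramble virus called none of the 9 members, where 8 genes, 0.0562% of all, were called. At an unadjusted p under 0.05 only Col3a1 passed, at -0.64 (SE 0.27, adjusted p = 0.394), against 11.4% of all genes. On the 11 arrays it was -0.85 (adjusted p = 0.383). VEGFR1del_Scramble and WT_Scramble hearts did not overlap for Col3a1, lower with the deletion against 7.02% of all genes, and for Bgn, higher with it against 8.15%. The Bgn difference was 0.18 (SE 0.10, adjusted p = 0.577), and 0.08 on the 11 arrays (SE 0.099, adjusted p = 0.894). There the hearts did not overlap for Bgn, higher against 12.2%, and for Col3a1, Loxl1 and the undetected Col5a2, lower against 11.9%. The median over the members was -0.022, and -0.0095 on the 11 arrays. Over the 8 members detected on all arrays these medians were 0.025 and 0.0012.

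The deletion under VEGF-B virus also called none of the 9 members, and 0% of all genes. All 9 members were above 0, as were 50.5% of all genes, with a median of 0.28. The median over the 8 members detected on all arrays was also 0.28. At an unadjusted p under 0.05 there were 2 members, against 11% of all genes. These were Bgn at 0.46 (SE 0.11, adjusted p = 0.166) and Loxl1 at 0.29 (SE 0.12, adjusted p = 0.391). VEGFR1del_VEGFB and WT_VEGFB hearts did not overlap for 5 members, all higher, namely Bgn, Loxl1, Fn1, Col3a1 and Col1a2, against 11% of all genes. On the 11 arrays Bgn was also not called (adjusted p = 0.116).

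Within the VEGFR1del_VEGFB group, replicate 1 was the highest heart for 8 of the 9 members, and replicate 2 was the highest for Col5a2. The share of all genes highest in replicate 1 was not counted. Against the WT_Scramble mean, replicate 1 stood 1.04 higher for Col3a1, 1.33 for Lox and 1.54 for Col1a1. The other 3 hearts stood between -0.04 and 0.15 for Col3a1, between 0.07 and 0.31 for Lox and between 0.37 and 1.27 for Col1a1. For Bgn the hearts lay closer together, with replicate 1 at 0.69 and the others from 0.58 to 0.65. Without replicate 1 the differences with VEGF-B in VEGFR1-deleted hearts were 0.67 for Col3a1, 0.53 for Lox, 0.64 for Col1a1 and 0.43 for Bgn.

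**Figure D3:**
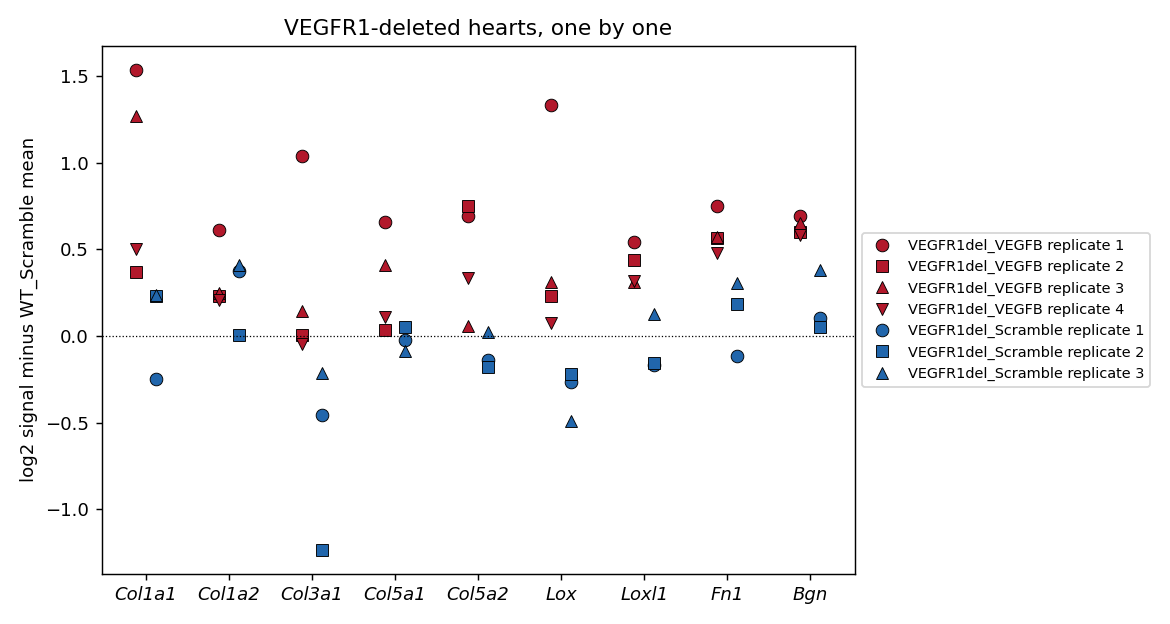
Log2 signal of each member in each VEGFR1-deleted heart minus the WT_Scramble mean, with genes along the horizontal axis and 1 point per heart, red with VEGF-B virus and blue with scramble virus. VEGFR1del_VEGFB replicate 1 stands apart for Lox, at 1.33, and for Col3a1, at 1.04, while the 4 VEGFR1del_VEGFB hearts lie together for Bgn, from 0.58 to 0.69.

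Deviations from the group means followed each other to differing degrees between members. Over the 12 arrays Pearson's r was 0.92 between Col1a1 and Col5a1, 0.79 between Loxl1 and Bgn and 0.77 between Loxl1 and Fn1. It was 0.17 between Col1a1 and Col1a2, and 0.0050 between Col5a1 and Col5a2, whose probe was near the detection limit. These values share the same arrays, and VEGFR1del_VEGFB replicate 1 enters all of them.

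The genes whose profile over the 12 arrays was most like that of the 5 fibrillar collagens, taken as the mean of their scaled values, were Mfap5, with Pearson's r of 0.93, probe ILMN_1226259 (r = 0.91), E2f1 (r = 0.91), Npr2 (r = 0.91), Kdelr3 (r = 0.91), Ranbp10 (r = 0.90), Rtn4 (r = 0.90) and Itgbl1 (r = 0.90), out of 14231 genes compared. Mfap5 encodes a glycoprotein of elastic microfibrils, Kdelr3 a receptor that returns proteins to the endoplasmic reticulum, and Npr2 a natriuretic peptide receptor. The collagen profile reached 2.03 scaled units in VEGFR1del_VEGFB replicate 1, against -0.94 to 0.65 in the other 11 hearts, and that heart enters each correlation.

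Other genes of the collagen pathway were counted from lists named by function. With VEGF-B in VEGFR1-deleted hearts 4 of 6 fibril-associated and microfibrillar collagens rose, among them Col8a1 (1.06, SE 0.15, adjusted p = 0.00834), Col15a1 (1.06, SE 0.19, adjusted p = 0.0156) and Col6a1 (0.51, SE 0.12, adjusted p = 0.0289). Of 14 enzymes and chaperones that fold and modify collagen, 2 rose, the prolyl 3-hydroxylases P3h3 (0.49) and P3h1 (0.57). Of 7 elastic fibre genes, 1 rose, Mfap5 (0.96, SE 0.20, adjusted p = 0.0233). In the same comparison 1 of 11 genes of collagen breakdown rose, the metalloproteinase inhibitor Timp3 (0.60), and 1 of 7 receptors, the collagen receptor Ddr1 (0.46, adjusted p = 0.0357), whose call was lost on the 11 arrays (0.39, adjusted p = 0.0757). These counts stand against 2.82% of all genes called higher.

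None of the 4 other fibrillar collagens, 3 procollagen processing genes, 2 other crosslinking enzymes, 4 small leucine-rich proteoglycans other than Bgn or 8 TGF-beta genes was called in that comparison. On the 11 arrays, against 4.71% of all genes, more genes were called in some lists and fewer in others. The TGF-beta list had 3 of 8 higher, Tgfb1 (0.49), Tgfbr2 (0.50) and Ccn2 (0.94), the elastic fibre list 3 of 7, the breakdown list 2 of 11 and the other crosslinking enzymes 1 of 2, Tgm2 (0.40, adjusted p = 0.0477). The fibril-associated collagens had 3 of 6, the receptors 0 of 7 and the folding genes 2 of 14. The list medians were 0.55 for the fibril-associated collagens and 0.60 for the elastic fibre genes, against 0.47 for the members.

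With both the deletion and VEGF-B, against neither, where 11.6% of all genes were called higher, 5 of 6 fibril-associated collagens and 5 of 7 elastic fibre genes rose, and these elastic fibre genes included Mfap4 (1.60), Mfap2 (1.01) and Fbln2 (0.63). Of the folding genes 6 of 14 rose, among them P3h3 (0.82), the collagen chaperone Serpinh1 (0.47) and the prolyl isomerase Ppib (0.52). Pcolce, which enhances procollagen trimming, rose by 0.55 and the transglutaminase Tgm2 by 0.45. Of the TGF-beta genes 4 of 8 rose, including Tgfb1 (0.66), Ccn2 (1.16) and Tgfbr2 (0.57). The breakdown list had 3 of 11 higher, Timp3 (1.01), Timp1 (1.20) and Mmp14 (0.60). The proteoglycan Lum fell by 0.53, while Bgn rose.

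In wild-type hearts with VEGF-B virus 1 gene of these pathway lists was called, P3h3 (0.62, SE 0.13, adjusted p = 0.0284), against 1.75% of all genes called higher. Without VEGFR1del_Scramble replicate 3 Tgfb1 was called as well (0.50, adjusted p = 0.0376). None of the 6 fibril-associated collagens passed, with a median of 0.44, and Col6a1 at 0.49 came closest (adjusted p = 0.0989).

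**Figure D4:**
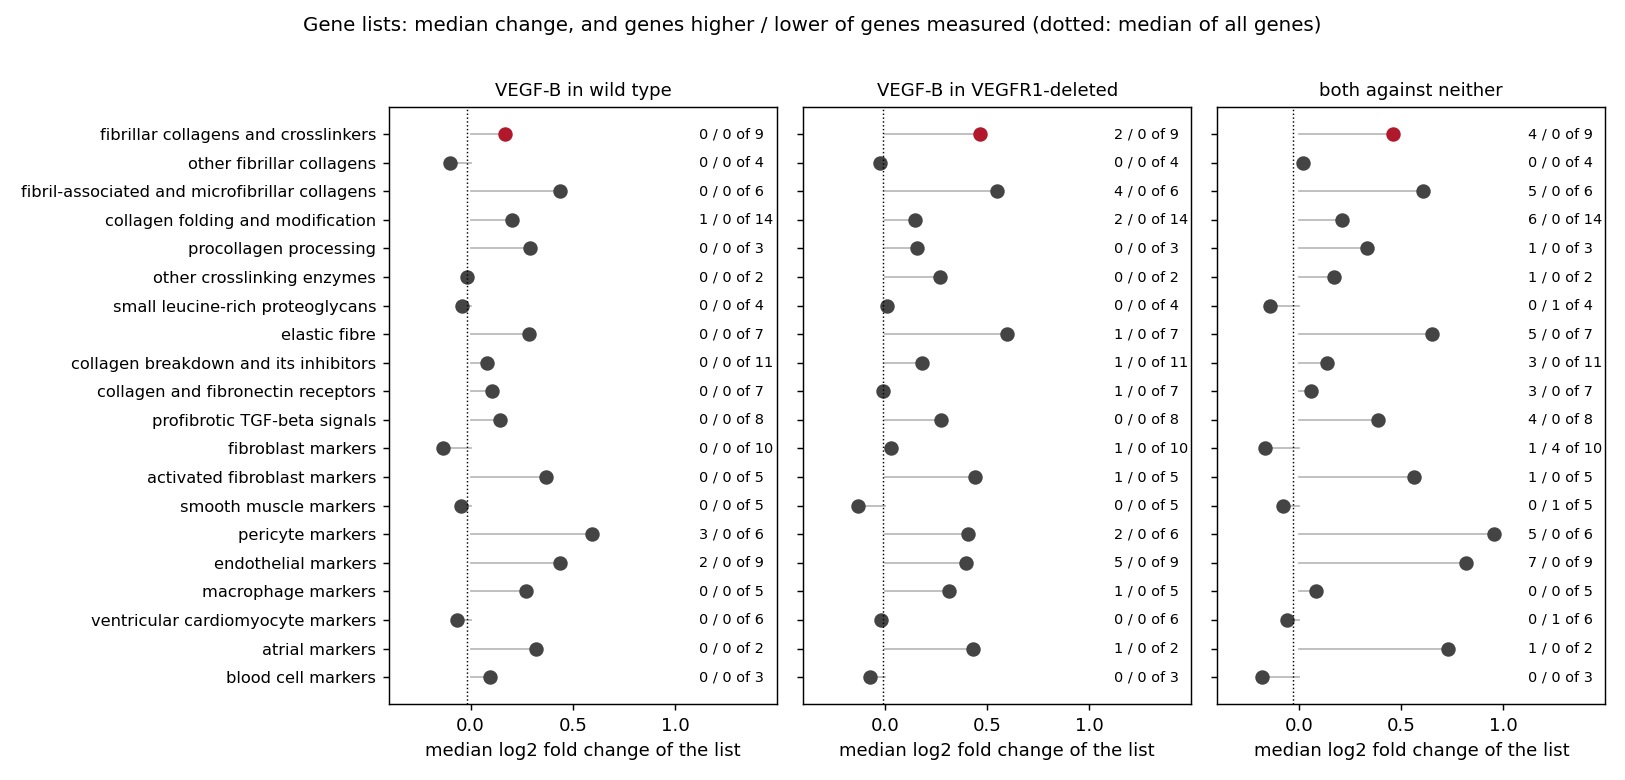
Median log2 fold change of each gene list, with the members on the top row, in each comparison shown, with the number of genes higher and lower of those measured beside it and a dotted line at the median over all genes. For VEGF-B in VEGFR1-deleted hearts the members lie at 0.47 and the elastic fibre list at 0.60, while the fibroblast markers lie at 0.03.

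Markers of the cells that could supply this RNA moved in different directions. The summed log2 levels below are led by the brightest probes of each list. The 10 fibroblast markers summed to 13.40 to 13.64 in VEGFR1del_VEGFB hearts, 13.45 to 13.57 in WT_VEGFB hearts, 13.42 to 13.44 in VEGFR1del_Scramble hearts and 13.57 to 13.75 in WT_Scramble hearts. They did not separate VEGFR1del_VEGFB hearts from VEGFR1del_Scramble hearts, where 1 of 10 rose, Mfap5, and 0 fell.

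Against WT_Scramble hearts 4 of the 10 fibroblast markers fell in VEGFR1del_VEGFB hearts, including Gsn (-0.999), Scara5 (-0.82) and Pdgfra (-0.55), and 1 rose. Of all genes 9.43% were called lower and 11.6% higher there. Among 5 measured markers of activated fibroblasts 1 rose, Meox1, by 1.00 with VEGF-B in VEGFR1-deleted hearts and by 1.54 with both against neither. Postn, a defining gene of that state, was not detected with any of its 3 probes on any array, and neither was Cilp.

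Pericyte and endothelial markers were higher in the comparisons in which members were called, and also where none was. Pericyte markers rose for 2 of 6 with VEGF-B in VEGFR1-deleted hearts and for 5 of 6 with both against neither, among them Pdgfrb (1.42), Kcnj8 (1.19) and Notch3 (0.98). Their summed log2 level ran from 11.98 to 12.14 in VEGFR1del_VEGFB hearts, was 11.84 in both WT_VEGFB hearts, and ran from 11.56 to 11.88 in VEGFR1del_Scramble hearts and from 11.22 to 11.38 in WT_Scramble hearts. Endothelial markers rose for 5 of 9 and for 7 of 9 in these comparisons, and summed to 14.25 to 14.33 in VEGFR1del_VEGFB hearts, 13.93 to 14.00 in WT_VEGFB hearts, 13.68 to 14.09 in VEGFR1del_Scramble hearts and 13.26 to 13.40 in WT_Scramble hearts. In wild-type hearts with VEGF-B virus 3 of 6 pericyte and 2 of 9 endothelial markers rose, against 1.75% of all genes called higher. For the deletion with scramble virus the pericyte median was 0.46 with 1 of 6 called and the endothelial median 0.38 with 0 of 9 called, against -0.022 for the members, and on the 11 arrays these were 0.31 with 0 called, 0.23 with 0 called and -0.0095. For VEGF-B in VEGFR1-deleted hearts the medians were 0.41 for pericyte, 0.40 for endothelial and 0.03 for fibroblast markers, and 0.47 for the members. For the deletion under VEGF-B virus they were 0.31, 0.28, -0.055 and 0.28 in the same order, with no gene of these lists called. In the difference between the effects of VEGF-B by genotype the medians were -0.22 for pericyte markers and -0.04 for endothelial markers. They were 0.23 for fibroblast markers and 0.28 for the members, and no gene of these lists was called. On the 11 arrays the medians were -0.13 for pericyte, 0.04 for endothelial and 0.18 for fibroblast markers, and 0.36 for the members. For VEGF-B in VEGFR1-deleted hearts on the 11 arrays 3 of 6 pericyte, 6 of 9 endothelial and 2 of 5 macrophage markers rose. Of all genes 4.71% were called higher there. Of 2 measured atrial markers Nppa rose, by 0.98 with VEGF-B in VEGFR1-deleted hearts and by 1.26 with both against neither. The other, Myl4, was called in neither, and lay below 0 in the former and above 0 in the latter. The atrial genes Myl7, Sln and Bmp10 were not measured above the filter. Of the macrophage markers 1 of 5 rose with VEGF-B in VEGFR1-deleted hearts, Adgre1 (0.85, SE 0.21, adjusted p = 0.0369), and none of 5 smooth muscle or 3 blood cell markers did. The ventricular markers summed to 16.28 to 16.34 in VEGFR1del_VEGFB hearts and 16.31 to 16.34 in WT_Scramble hearts. The part of these cell types in the members' differences was not tested.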

How the data were processed

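Transcripts were measured in 12 mouse hearts on Illumina bead arrays, 1 array per heart, in 4 groups taken from the sample titles. The deposited table gives, per the file headers, a linear intensity and a detection p-value for each probe and array, with no normalization or background subtraction. The authors also deposited log2 values, which the values show to be quantile normalized in 3 separate sets of arrays. How they were made is not given in the sources used here.

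From the signals, neqc of limma 3.58.1 (R 4.3.3) corrected background from the detection p-values, added an offset of 16 and quantile normalized all 12 arrays. Probes with a detection p under 0.05 on 2 or more arrays were kept (20312 probes). Symbols came from the platform annotation, and each gene was represented by its probe of highest mean, giving 14240 genes (14116 on 11 arrays). One mean per group was fitted with lmFit and eBayes, and 6 comparisons were taken, with two-sided p-values, Benjamini-Hochberg adjustment across the genes of each comparison, and a call at 0.05. Beside the members, the text names Flt1, up to 3 genes of smallest p per list and comparison, and the 8 genes most correlated with the fibrillar collagens. Comparisons with VEGFR1del_VEGFB share its arrays. The members and lists were chosen with earlier results of these data known. Where a gene was not detected in 1 group, its difference is given as the brighter group's mean over the lowest detected signal. It is a bound only where the brighter group was detected on every array. The code was checked on simulated data with 200 changed genes, which does not test the members' calls. Alternatives changed how background, scale, dim probes, probe choice and variance were handled, which arrays were fitted and with which block, and left out each array in turn. The p-values measure the spread between hearts, whose number limits the precision. Python 3.11.15 with matplotlib 3.10.9 drew the figures.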

Additional observations from a re-analysis of the deposited data

Results flagged for a closer look

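Col1a2 in VEGFR1del_VEGFB replicate 1 lay far from the other hearts of its group. Its gap to the nearest of them was 0.9023 of the range of the group, above the 95% critical value of Dixon's test for 4 samples, and about 1 group in every 20 passes that value by chance. The same heart was the highest of the group for 8 of the 9 members, and its gaps of 0.824 for Col3a1 and 0.810 for Lox stayed under the critical value.

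The effect of VEGF-B on Col3a1 differed in direction between the genotypes, with every heart lying on its own side. The difference between the effects was 1.16 on the log2 scale, with an adjusted p of 0.975 in limma's interaction test, so it did not pass. The dimmer second probe of Col3a1 gave 0.22 in VEGFR1-deleted and 0.40 in wild-type hearts, both above 0.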

How the results depend on the processing

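No called difference of a member changed sign under any alternative. The called difference of Bgn with both the deletion and VEGF-B against neither held in 21 of 21 alternatives (0.60 to 0.65), Loxl1 in 20 of 21 and Fn1 in 20 of 21, where the mean of its probes gave an adjusted p of 0.0582. Col1a1 held in 14 of 21 (0.67 to 1.10), and also lost its call without a filter on dim probes (adjusted p = 0.0703) and with a trended, robust variance (adjusted p = 0.0565). For VEGF-B in VEGFR1-deleted hearts Bgn (0.39 to 0.55) and Loxl1 (0.42 to 0.57) each held in 14 of 20.

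The number of called members in that comparison was 2, with 656 of 14240 genes called. With an offset of 50 it was 4, with 1019 genes called, and with median scaling 7, with 1050. A stricter filter gave 4 members, with 870 of 10810 genes called. A trended, robust variance gave 5, with 1030 genes. Fitting only the arrays compared gave 0, with 176 genes, and the authors' deposited values gave 8, with 1770. Without both VEGFR1del_Scramble replicate 3 and VEGFR1del_VEGFB replicate 1 it was 3, with 724 of 13944 genes called. That alternative was chosen after seeing the data. Leaving out each heart in turn gave 0 to 4, and 28 to 1031 genes overall against 656. The deletion under VEGF-B called 1 member, Bgn, without background correction, with a trended, robust variance and on the authors' values, against 0. Those settings called 63, 78 and 93 of all genes in turn, against 0. With both against neither, leaving out each heart gave 2 to 4 members, and 2135 to 3082 genes overall against 2994.

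With the replicate number as a block the count for VEGF-B in VEGFR1-deleted hearts was 1, Lox (adjusted p = 0.0410), with 370 of all genes called. Same-numbered hearts correlated from -0.040 to 0.115 in their deviations. Hearts of differing number were not compared, so a pairing by number was neither shown nor excluded. For VEGF-B in wild type, leaving out each heart gave 0 members and 4 to 397 genes against 284. With the authors' sets as a fixed block, VEGF-B in wild type called 0 members and 3 genes against 284. As a random block the count for VEGF-B in VEGFR1-deleted hearts was 2, with 604 of all genes called. That fit, counted among the alternatives above, cannot separate set from group, since all VEGFR1del_VEGFB arrays formed 1 set. The correlation within sets was 0.0092. Under median scaling all genes had a median of 0.12 with VEGF-B in both genotypes, and 95.9% of the genes called in VEGFR1-deleted hearts were higher, with 86.6% on the authors' values, against 61.1%. The causes were not tested. Dim probes limit Col5a2 and the second probes of Col3a1 and Fn1.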
